A study of Mus musculus with 4 samples.

Results

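Among 10 genes of the mTORC1 growth pathway and its translational effectors, polyadenylated mRNA of Eif4ebp1 and Deptor fell by 20.6% and 19.8% after degradation of the RNA polymerase II subunit RPB3, that of Rps6kb1 was higher by 13.2%, and that of Larp1 differed by 0.55%, within its error. Rps6kb1 was higher at all 3 scalings, but its adjusted p in the authors' deposited table was 0.38, and its call depended on single libraries. The percentages above hold at the authors' scaling of the libraries. With median-of-ratios factors the log2 fold changes of Eif4ebp1 and Deptor were -0.23 and -0.22, and Larp1 was called higher (0.11). Mtor, Rptor and Eif4ebp2 were lower by smaller amounts, and their calls also depended on how the libraries were scaled. The authors' DESeq2 adjusted p for these genes was 0.263, 0.205 and 0.413. It was 0.0563 for Deptor and 0.000988 for Eif4ebp1. Tsc1, Tsc2 and Akt1s1 did not pass the test. The 10 genes (Mtor, Rptor, Larp1, Eif4ebp1, Eif4ebp2, Rps6kb1, Tsc1, Tsc2, Akt1s1 and Deptor) were taken by symbol from a table of 30282 mouse genes. The rule used symbols and no measured value, but the choice was made with earlier results of these data known.

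The cells were V6.5 mouse embryonic stem cells with a dRPB3-mAID-GFP degron, an auxin-inducible tag on RPB3 together with the fluorescent protein GFP, grown with the GSK3 inhibitor CHIR99021 and the MEK inhibitor PD0325901. Both groups were first given 1 µg/ml of doxycycline for 12 h to switch on TIR1, a plant ubiquitin ligase component that binds the tag in the presence of auxin. The IAA group (2 libraries) then received 500 µM of the auxin indole-3-acetic acid for 12 h, and the Untreated group (2 libraries) received none. The 12 h is that of the sample labels, while their protocols also mention a 1 h depletion for poly(A) RNA-seq. The exposure of these libraries is therefore not certain. Whether the degron line is a single clone, and whether the libraries came from separate cultures, is not given in the sources used here, and if they did not, the p-values reflect technical spread alone. No library with IAA but without the degron was analysed here.

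mTORC1 is a protein kinase complex on the lysosome that couples amino acids, growth factors and energy to protein synthesis. It phosphorylates the S6 kinases and the 4E-BP proteins, which when unphosphorylated hold the cap-binding protein eIF4E. mRNAs of ribosomal proteins and translation factors begin with a C followed by a run of pyrimidines, the 5′ terminal oligopyrimidine (TOP) motif. LARP1 binds this motif and the cap when mTORC1 is inactive, which represses the translation of TOP mRNAs and preserves them. Apart from the preservation of TOP mRNAs, this regulation acts largely on proteins and on translation, which mRNA levels do not measure.

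Sequences at annotated starts show where pyrimidine runs of the TOP kind lie in some TOP mRNAs and in the pathway's own genes. Each sequence below is 30 bases long in the direction of transcription, from RefSeq on GRCm38.p6, and the base after the first 15 is the annotated start. Capitals mark a C followed by at least 4 further C or T bases, where that C lies within 5 bases of the annotated start. The first 3 are TOP mRNAs picked because they hold such a run, and the fourth is a TOP mRNA without one at its annotated start. In all 3 the run begins before the annotated start, by 5 bases in Rpl7a and Eef1a1. Whether a marked run is the TOP motif of the transcript made was not tested, and it may be promoter sequence.
Rps6 (chr4:86857353-86857382, minus strand): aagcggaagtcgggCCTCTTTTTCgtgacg
Rpl7a (chr2:26910792-26910821, plus strand): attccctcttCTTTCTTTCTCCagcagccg
Eef1a1 (chr9:78481710-78481739, minus strand): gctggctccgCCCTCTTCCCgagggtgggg
Eef2 (chr10:81176616-81176645, plus strand): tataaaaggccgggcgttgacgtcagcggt
Mtor (chr4:148448567-148448596, plus strand): cccgccctccccaCCTCCCTggcctagaag
Larp1 (chr11:58009049-58009078, plus strand): cggctaggcgcgccggagCCTTCTgcccgg
Rptor (chr11:119602890-119602919, plus strand): ggcgtgggggaagggaggacggaacaccga
Rps6kb1 (chr11:86544793-86544822, minus strand): cgcatgcgccggagctgaacttgaggagcc
Eif4ebp2 (chr10:61452655-61452684, minus strand): ggtatcgcagcgggacgaccgggcgagagc
Tsc1 (chr2:28641218-28641247, plus strand): gagacgcttcacgccagggggaggtgctgc
Tsc2 (chr17:24632613-24632642, minus strand): ctcgcccccggaagtacgggttgcgcttcc
Akt1s1 (chr7:44850357-44850386, plus strand): tcctgttgtgttcctagagcaggggcctct

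A promoter entry was matched for 8 of the 10 genes, the exceptions being Eif4ebp1 and Deptor. Of these 8, Mtor and Larp1 held the run within 5 bases of the annotated start and none held it exactly at the start. These RefSeq starts can differ from the GENCODE gene models used for coordinates below. The Mtor sequence ends at 148448596, before the GENCODE gene start of 148448611, so by that model it lies outside the gene. The Akt1s1 and Eef1a1 sequences lie inside their GENCODE genes, away from the gene starts (44848991, and 78489151 on the minus strand). For comparison, 18.5% of 27025 genes with a promoter entry held it within 5 bases and 2.49% exactly at the start. Among cytosolic ribosomal protein genes, 27 of 58 matched (46.6%) held it within 5 bases and 13 (22.4%) exactly at the start. For the other TOP mRNAs the counts were 6 and 3 of 16 matched. The start used in these cells was not measured, so these matches describe the letters at the annotated starts and not the transcripts made.

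All 10 genes were well measured. Whole reads worked out from the deposited values ranged from 296 for Akt1s1 to 4554 for Larp1 in a library, which corresponds to counting errors of 5.81% and 1.48%. The libraries held 9194432 and 8779401 reads in the IAA group and 8724737 and 8794680 in the Untreated group. Values below are normalised read counts, that is read counts divided by the authors' size factor for each library. They were compared on log2(value + 1) with limma over the 14928 genes whose mean reached 10, and calls were made where the Benjamini-Hochberg adjusted p was under 0.05. Stem cell markers were abundant, with 7 listed genes summing to 49962 and 48421 in IAA and 44070 and 45632 in Untreated libraries. They moved both ways, with log2 fold changes (IAA over Untreated) from -0.24 to 0.52. Of the 7, 3 were called higher and 2 lower (42.9% and 28.6%), beside 11.1% and 28.9% of all genes tested. Of 8 feeder fibroblast markers, 5 were read and summed to 349 and 358 in IAA and 425 and 495 in Untreated libraries, mostly as Pdgfrb and Thy1. Primitive endoderm markers summed to 185 and 218 in IAA and to 197 and 188 in Untreated libraries, no marker read was at 0 in all libraries, and the part of such cells in the results was not tested. Polr2c, which encodes RPB3, had 3242 and 3158 in IAA and 2726 and 2885 in Untreated libraries, but an mRNA does not measure the degraded protein.

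Levels per length put both 4E-BP genes and Larp1 well above the other 7 genes. Eif4ebp1 (chromosome 8, 27260329 to 27276674, plus strand, GRCm38) averaged 1443 ± 58.9 normalised reads per kb of merged exon in IAA and 1817 ± 101 in Untreated cells (SD, n = 2 each). Eif4ebp2 (chromosome 10, 61428491 to 61452661, minus strand) followed with 738 ± 34.8 in IAA and 792.4 ± 10.0 in Untreated cells, and Larp1 (chromosome 11, 58009064 to 58062034, plus strand) with 679 ± 2.07 in IAA and 675 ± 0.932 in Untreated cells. In IAA cells the remaining 7 genes lay between 136 for Tsc2 and 47.1 for Tsc1 per kb, and in Untreated cells between 154 for Mtor and 46.8 for Tsc1. The median over all genes tested was 56.7 per kb. The ranges of the libraries overlapped for 1 pair of neighbours in each order, Tsc2 and Mtor in IAA cells and Deptor and Akt1s1 in Untreated cells. Merged exons join all annotated transcripts of a gene, so a gene with long rare exons, such as Rptor with 13471 merged bases, may be placed too low by this measure.

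**Figure D1:**
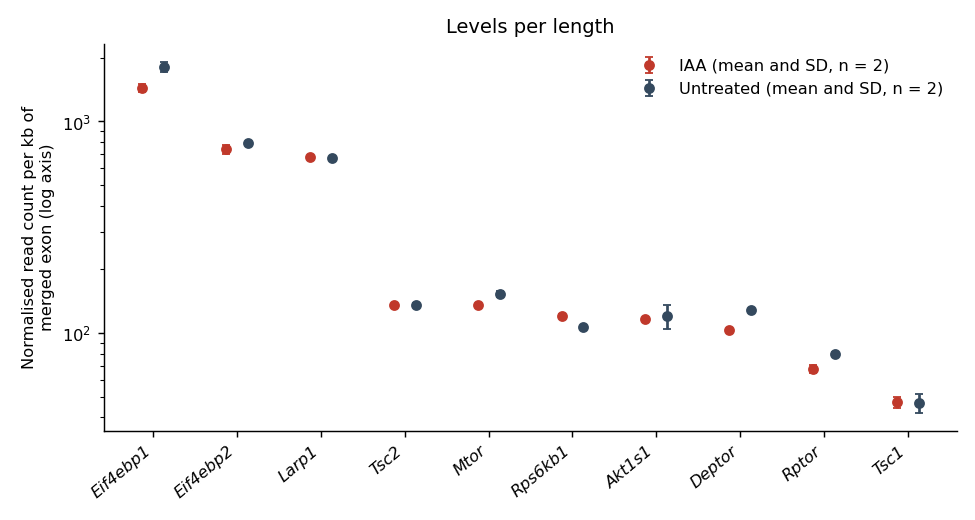
Normalised read count per kb of merged exon (log axis) for the 10 genes, ordered by their level in IAA cells; points are means and bars the SD of 2 libraries. Eif4ebp1, Eif4ebp2 and Larp1 lie at 675 per kb or more in both groups, and the other 7 genes at 154 or less.

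Of the 10 genes, 1 was called higher and 5 lower after IAA, and 4 were not called. Over all genes tested, 11.1% were called higher, 28.9% lower and 39.9% in either direction, beside 60.0% of the members in either direction, and no test of the list was made. The median log2 fold change of the members was -0.07, against -0.11 for all genes tested, and 4 of the 10 lay below that median of all genes. Groups did not overlap for 7 members, compared with 68.2% of all genes. The scaling matters for changes this small. Scaling by median-of-ratios factors instead, under which the median of all genes was -0.01, gave 2 members called higher and 3 lower. Over all genes those factors gave 20.3% higher and 20.5% lower, so the share of calls that were higher was 49.9% in place of 27.7%. Without any 1 of the 4 libraries limma called 0 of the 14928 genes (4734 to 5070 at an unadjusted p under 0.05), while limma's voom on recovered reads still called 4 to 6 of the members.

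**Figure D2:**
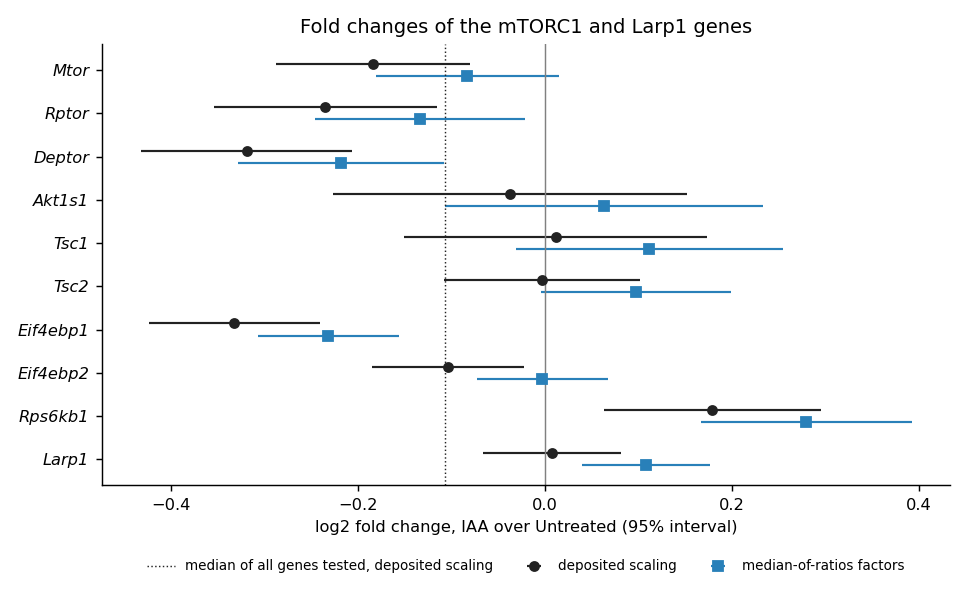
log2 fold change of each gene, IAA over Untreated, with its 95% interval from limma, at the deposited scaling (circles) and with median-of-ratios factors (squares); the dotted line is the median of all genes tested, -0.11. Eif4ebp1 and Deptor lie below 0 and Rps6kb1 above 0 under both scalings, and the intervals of Tsc1, Tsc2 and Akt1s1 include 0 under both.

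Of the 4 genes of the kinase complex and its inhibitors, Mtor, Rptor and Deptor were called lower at the deposited scaling and Akt1s1 was not called. Mtor, the catalytic subunit (chromosome 4, 148448611 to 148557683, plus strand, 56 merged exons), had normalised read counts of 1355 and 1381 in IAA libraries, against 1516 and 1592 in Untreated libraries. Both IAA libraries were below both Untreated libraries. The log2 fold change was -0.18 (SE 0.05, 95% interval -0.29 to -0.08; limma adjusted p = 0.00596), so that it fell by 11.9%. With median-of-ratios factors it was -0.08 (limma adjusted p = 0.179), and it was not called. In the authors' deposited table the adjusted p of Mtor was 0.263.

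Rptor encodes raptor, the scaffold that brings substrates to mTORC1 (chromosome 11, 119602905 to 119899576, plus strand). It had 945 and 886 in IAA libraries and 1095 and 1059 in Untreated libraries, without overlap. Its log2 fold change was -0.23 (SE 0.06, 95% interval -0.35 to -0.12; limma adjusted p = 0.00266). This became -0.13 with median-of-ratios factors (limma adjusted p = 0.0489) and -0.13 with library totals (limma adjusted p = 0.0576), where the call was lost. In the authors' deposited table the adjusted p of Rptor was 0.205.

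Deptor encodes an inhibitory subunit shared by mTORC1 and mTORC2 (chromosome 15, 55112317 to 55259271, plus strand). It was read at 923 and 905 in IAA libraries and at 1141 and 1140 in Untreated libraries, so the gap between groups was many times the spread within them. The log2 fold change was -0.32 (SE 0.05, 95% interval -0.43 to -0.21; limma adjusted p = 0.000101). It was called at all 3 scalings, whereas in the authors' deposited table its adjusted p was 0.0563.

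Akt1s1 encodes PRAS40, a raptor-bound inhibitor that AKT phosphorylates (chromosome 7, 44848991 to 44855421, plus strand). It had 360 and 359 in IAA libraries and 336 and 405 in Untreated libraries, with the IAA values inside the Untreated range. The log2 difference was -0.04 (95% interval -0.23 to 0.15; limma adjusted p = 0.778), an interval that allows a change of the size seen in Mtor. It is the least read of the 10 genes, and 5.27% of its merged exon bases overlap other annotated genes, mainly Tbc1d17 on the opposite strand.

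**Figure D3:**
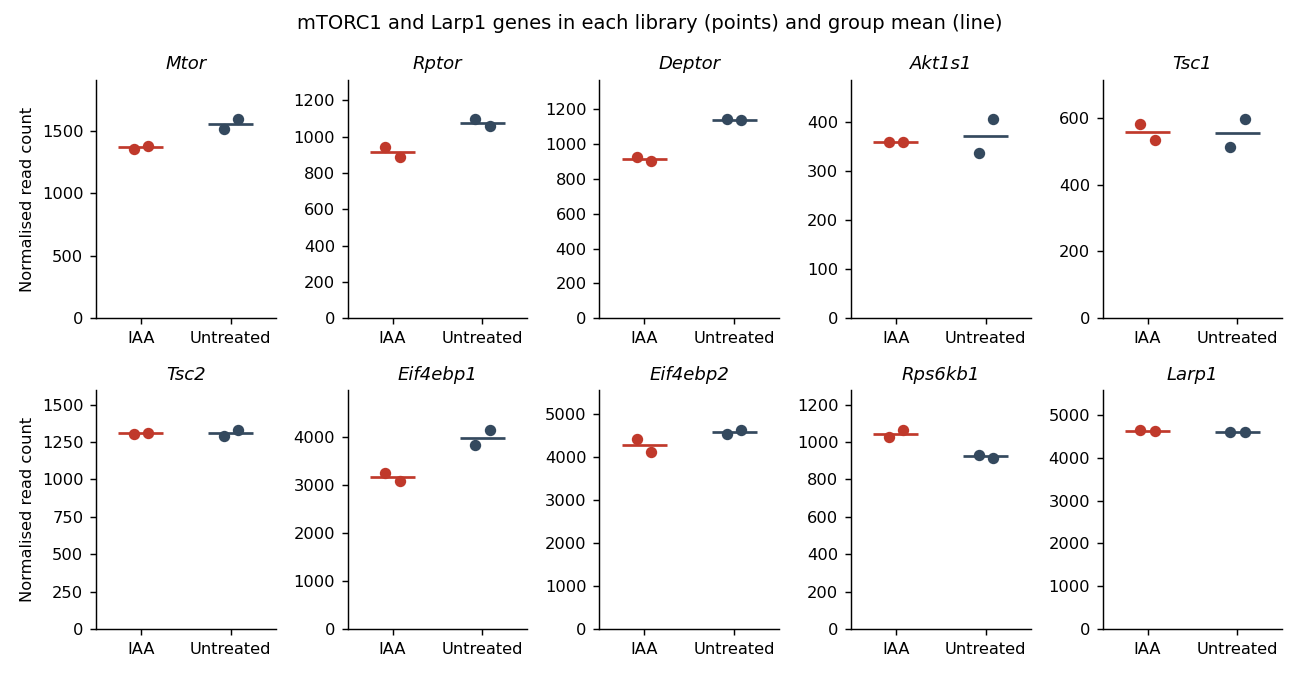
Normalised read counts of the 10 genes in each of the 2 IAA and 2 Untreated libraries (points) with the mean of each group (line); the vertical axes start at 0 and differ between panels. The 2 groups are apart for Mtor, Rptor, Deptor, Eif4ebp1, Eif4ebp2 and Rps6kb1, separated by only 11 counts for Larp1, and overlap for Akt1s1, Tsc1 and Tsc2.

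At the deposited scaling Tsc1 and Tsc2 showed no difference larger than their error. Tbc1d7, the gene of the third TSC subunit, was called lower and is described below. Tsc1 and Tsc2 encode hamartin and tuberin, which together switch off the mTORC1 activator RHEB. Tsc1 (chromosome 2, 28641228 to 28691167, plus strand) had 580 and 535 in IAA libraries and 513 and 595 in Untreated libraries, and its log2 difference was 0.01 (95% interval -0.15 to 0.17; limma adjusted p = 0.922). Tsc2 (chromosome 17, 24595816 to 24632630, minus strand) had 1305 and 1314 in IAA libraries and 1294 and 1330 in Untreated libraries, with a log2 difference of -0.0026 (95% interval -0.11 to 0.10; limma adjusted p = 0.973). In both genes the libraries of the 2 groups interleave at that scaling. With median-of-ratios factors the log2 differences of Tsc1 and Tsc2 were 0.11 and 0.10, and neither was called. With library totals the 95% interval of Tsc2 was 0.0009 to 0.20 (limma adjusted p = 0.102). The interval for Tsc2 is the narrower one, and 7.20% of its merged exon bases overlap Pkd1 on the opposite strand, whose reads could be counted with it if strand was not used.

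The genes of the 4E-BP translation repressors were both lower, Eif4ebp1 more than Eif4ebp2. Eif4ebp1 had 3260 and 3077 in IAA libraries, against 3833 and 4148 in Untreated libraries. Every IAA library was below every Untreated library, and the log2 fold change was -0.33 (SE 0.04, 95% interval -0.42 to -0.24; limma adjusted p = 5.37e-06). In the authors' deposited table it is the only one of the 10 that passes the same threshold (adjusted p of 0.000988), where 9.57% of genes with an adjusted p were called lower and 2.47% higher.

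Eif4ebp2, the paralogue, had 4411 and 4126 in IAA libraries and 4542 and 4624 in Untreated libraries. The groups did not overlap, but the spread within IAA was larger than the gap between the groups. Its log2 fold change was -0.10 (SE 0.04, 95% interval -0.18 to -0.02, limma adjusted p = 0.0407), which is close to the median of all genes. With median-of-ratios factors it was -0.0026 (limma adjusted p = 0.962). In the authors' deposited table the adjusted p of Eif4ebp2 was 0.413. The third paralogue, Eif4ebp3, was read at 4 and 2 in IAA libraries and 8 and 3 in Untreated libraries, too low to be tested.

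Ratios within a library do not depend on scaling. Per kb, Eif4ebp1 made up 66.1% and 66.3% of Eif4ebp1 plus Eif4ebp2 in IAA libraries, against 69.0% and 70.3% in Untreated libraries. The shares of the groups did not overlap, although an exact permutation test of 2 against 2 libraries cannot give a p below 0.33. Rptor made up 53.0% and 51.9% of Rptor plus Rictor in IAA libraries and 58.9% and 58.4% in Untreated libraries. Rictor encodes the scaffold that takes the place of raptor in mTORC2, and it had 1052 and 1032 in IAA and 960 and 949 in Untreated libraries (log2 difference 0.13, SE 0.05; limma adjusted p = 0.0734). By contrast, Tsc1 took 26.5% and 24.9% of Tsc1 plus Tsc2 in IAA libraries and 24.4% and 26.7% in Untreated libraries, which overlap.

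The S6 kinase gene Rps6kb1 was the only member called higher at the deposited scaling. It encodes S6K1, which phosphorylates ribosomal protein S6 (chromosome 11, 86498871 to 86544805, minus strand). Its normalised read counts were 1028 and 1064 in IAA libraries, against 932 and 915 in Untreated libraries. Both IAA libraries were above both Untreated libraries, and the log2 fold change was 0.18 (SE 0.06, 95% interval 0.06 to 0.30; limma adjusted p = 0.0142). With median-of-ratios factors it was 0.28 (limma adjusted p = 2.53e-05), and in the authors' deposited table the adjusted p was 0.38. With voom the call was lost without Untreated replicate 2 (adjusted p = 0.0532) or IAA replicate 2 (adjusted p = 0.113). Its paralogue Rps6kb2 had 211 and 223 in IAA and 231 and 186 in Untreated libraries, a log2 difference of 0.07 (SE 0.11; limma adjusted p = 0.686), and 23.7% of its merged exon bases overlap other genes.

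Larp1 mRNA lay close to no difference at the deposited scaling, with the narrowest interval of the 10. It had 4647 and 4627 in IAA libraries and 4616 and 4607 in Untreated libraries. The IAA values were above the Untreated ones by a margin of less than 1%, and the log2 difference was 0.0080 (SE 0.04, 95% interval -0.07 to 0.08; limma adjusted p = 0.882). Relative to other genes it was high: 64.0% of genes tested had a lower log2 fold change, and with median-of-ratios factors it was called higher, by 0.11 (limma adjusted p = 0.00751).

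The levels of TOP mRNAs were lower relative to Larp1. Of 79 cytosolic ribosomal protein genes tested 76 (96.2%) were called lower and none higher, with a median log2 fold change of -0.36. All 22 other TOP mRNAs were lower, with a median of -0.34, beside 28.9% of all genes called lower. With median-of-ratios factors 75 and 19 were lower, beside 20.5% of all genes. The extremes were Rpl7a (-0.52) and the barely read Rpl24 (0.57, limma adjusted p = 0.317) among ribosomal protein genes, and Hnrnpa1 (-0.63) and Eif3a (-0.10, or 0.0057 with median-of-ratios factors) among the others. Summed ribosomal protein reads amounted to 82.7 and 81.8 for every Larp1 read in IAA libraries, against 104 and 108 in Untreated libraries. For the other TOP mRNAs the ratio was 41.2 and 40.8 in IAA libraries and 52.4 and 53.1 in Untreated libraries. These lists are known from earlier results on the same libraries, so their direction is not independent evidence.

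**Figure D4:**
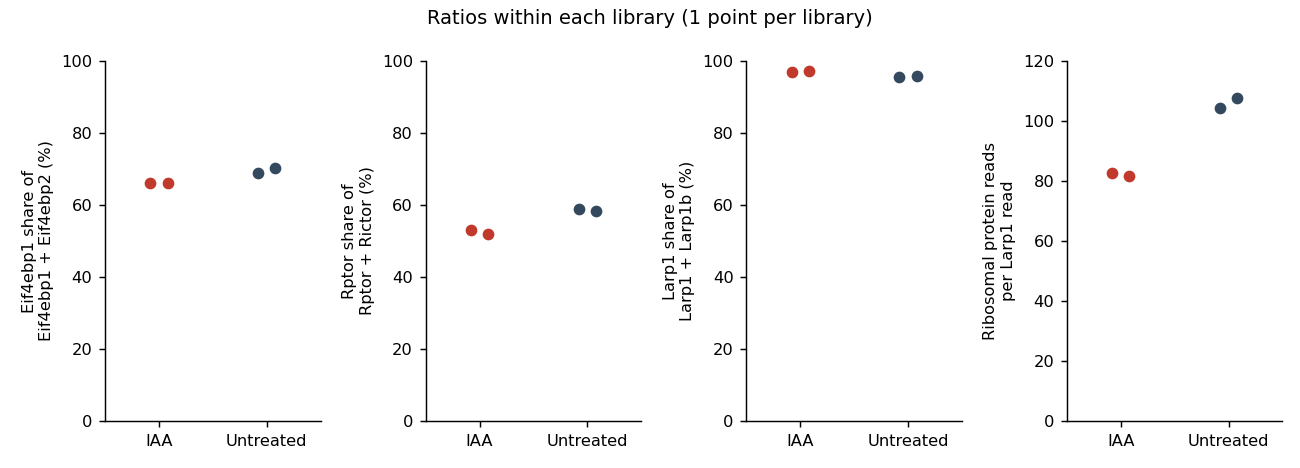
Ratios within each library (1 point per library): shares per kb of merged exon for Eif4ebp1, Rptor and Larp1 against their partner gene, and ribosomal protein reads per Larp1 read; all axes start at 0. The groups do not overlap in these panels. Ribosomal protein reads per Larp1 read were 82.7 and 81.8 in IAA against 104 and 108 in Untreated libraries. Among ratios not drawn, groups overlapped for Tsc1 with Tsc2, Rps6kb1 with Rps6kb2, Rptor with Mtor and Rragd with Rragc. They did not for Deptor with Mtor or for other TOP mRNAs per Larp1.

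The paralogue Larp1b and other La-related genes moved in both directions. Larp1b had an adjusted p of 0.000433 by limma and of 0.149 in the authors' deposited table. Its values were 177 and 168 in IAA and 255 and 244 in Untreated libraries (log2 fold change -0.53, SE 0.10). Larp1 therefore held 97.0% and 97.1% of the summed per-kb level of Larp1 and Larp1b in IAA libraries, against 95.7% and 95.9% in Untreated libraries. Larp7, which encodes the partner of the 7SK RNA, fell by 0.44 on the log2 scale, and Ssb, the gene of the La protein, fell by 0.19. Larp4, whose protein binds poly(A) tails, was higher by 0.13 and its paralogue Larp4b by 0.20. In all, 2 of the 6 were higher and 3 lower, with a median of -0.03 beside -0.11 for all genes, and with median-of-ratios factors Ssb (-0.09) was no longer called.

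Other subunits and assembly factors of the mTOR complexes were mostly not called. Of 10 tested, 1 was lower (10.0%) and none higher, beside 28.9% and 11.1% of all genes, with a median of -0.04. The lower gene was Tbc1d7, which encodes the third subunit of the TSC complex. It had 116 and 114 in IAA and 174 and 144 in Untreated libraries (log2 fold change -0.46, SE 0.13). Its adjusted p was 0.00975 by limma and 0.365 in the authors' deposited table. Mlst8, a subunit of both complexes, had 136 and 112 in IAA and 116 and 129 in Untreated libraries. Rheb, the activating GTPase, had 926 and 959 in IAA and 910 and 962 in Untreated libraries, and Tti1, of the complex that assembles mTOR kinase, had a log2 difference of -0.10 (limma adjusted p = 0.158).

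At the lysosome, 4 of 13 Rag GTPase, Ragulator and folliculin complex genes were higher and 2 lower, with a median of 0.05. These shares are 30.8% and 15.4%, beside 11.1% and 28.9% of all genes. Rragc was read at 507 and 526 in IAA libraries and 375 and 406 in Untreated libraries (log2 fold change 0.40, SE 0.08; limma adjusted p = 0.000291). Its paralogue Rragd was read at 516 and 499 in IAA libraries and 374 and 409 in Untreated libraries (0.37, SE 0.08, limma adjusted p = 0.000632). In the authors' deposited table the adjusted p was 0.104 for Rragc and 0.148 for Rragd. Both encode the partner that pairs with RagA or RagB. Rragb fell by 0.29 on the log2 scale (limma adjusted p = 0.0462), and with median-of-ratios factors its value was -0.19, no longer called. Its paralogue Rraga was read at 753 and 800 in IAA libraries and 723 and 734 in Untreated libraries (0.09, limma adjusted p = 0.257). Median-of-ratios factors put Rraga at 0.19, past the threshold (limma adjusted p = 0.00977). Lamtor2, of the Ragulator anchor, fell by 0.36. Flcn and Fnip1, of the folliculin complex that acts on RagC and RagD, were higher by 0.15 and 0.26.

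Of 17 amino acid sensing genes upstream of the Rags (GATOR, KICSTOR and the sensors), 8 were lower and 1 higher, or 47.1% and 5.88%, beside 28.9% and 11.1% of all genes. Their median was -0.21, and no test of the list was run. Castor1, the arginine sensor, had 129 and 124 in IAA libraries and 224 and 234 in Untreated libraries (log2 fold change -0.85, SE 0.11; limma adjusted p = 6.58e-06). Kptn, of KICSTOR, had 52 and 45 in IAA and 82 and 97 in Untreated libraries (-0.87, SE 0.19, limma adjusted p = 0.000876). In the authors' deposited table the adjusted p was 0.0155 for Castor1 and 0.182 for Kptn. The GATOR1 genes Nprl2 (-0.53) and Nprl3 (-0.44) were lower, while Depdc5, the third subunit, was not called (-0.06, limma adjusted p = 0.419). Sesn2, a leucine sensor, was the gene called higher (0.14). Median-of-ratios factors left 6 lower and 1 higher.

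**Figure D5:**
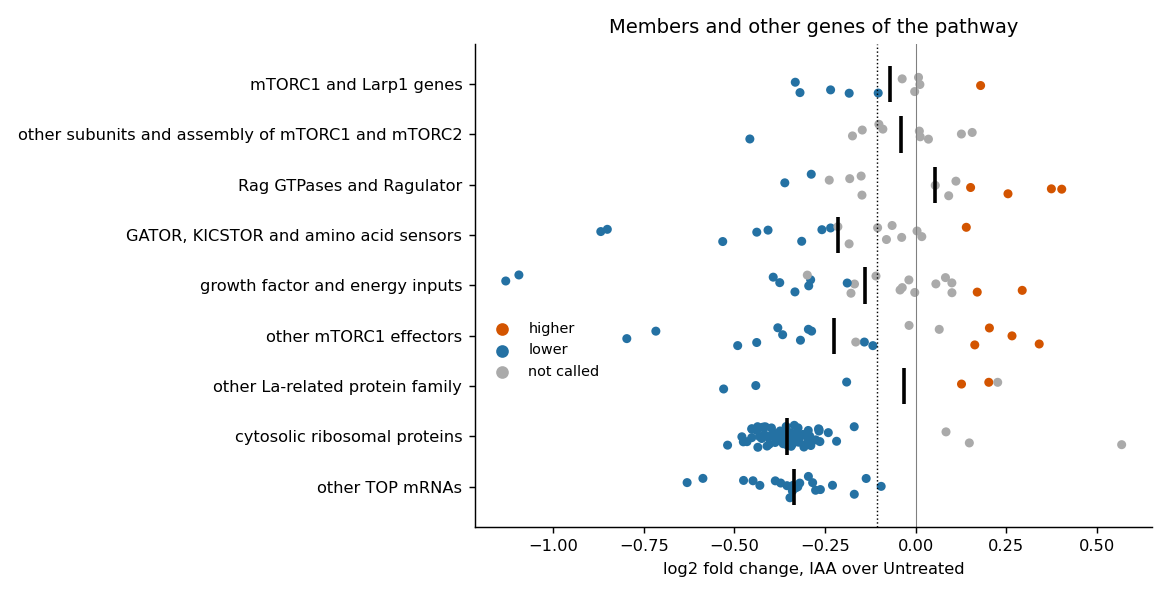
log2 fold change, IAA over Untreated, of every tested gene in the members, the 6 other pathway lists and the 2 TOP lists; colour gives the limma call at the deposited scaling, thick lines are list medians and the dotted line is the median of all genes, -0.11. Eif4b and Rps6 stand in 2 lists, vertical scatter within a row has no meaning, and the TOP lists have medians of -0.36 and -0.34 while the pathway lists spread to both sides.

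Growth factor and energy inputs were mixed, with 8 of 22 lower and 2 higher and a median of -0.14. These shares are 36.4% and 9.09%, beside 28.9% and 11.1% of all genes. Irs1, an insulin receptor substrate, was read at only 8 and 9 in IAA and 23 and 17 in Untreated libraries (log2 fold change -1.13, SE 0.39; limma adjusted p = 0.0245). Ddit4l, an mTORC1 inhibitor related to REDD1, had 43 and 38 in IAA and 88 and 87 in Untreated libraries (-1.10, SE 0.19, limma adjusted p = 0.000115). In the authors' deposited table the adjusted p was 0.0797 for Ddit4l, and Irs1 had none. The catalytic PI3K genes went opposite ways by limma, Pik3ca lower (-0.39) and Pik3cb higher (0.29). Neither passed in the authors' deposited table (adjusted p of 0.0851 and 0.172), nor did Prkag2 (0.348). By limma Prkag2, of the AMP-activated kinase, was lower (-0.38), and Akt1 was not called (-0.0024, limma adjusted p = 0.981).

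Further substrates and effectors of mTOR gave 11 lower and 4 higher of 18, with a median of -0.23. The 11 include Rps6 and Eif4b, which also stand in the TOP lists and are counted there too. These shares are 61.1% and 22.2%, beside 28.9% and 11.1% of all genes. Eef2k, the kinase that inhibits elongation factor 2, had 201 and 180 in IAA libraries and 320 and 343 in Untreated libraries (log2 fold change -0.80, SE 0.10; limma adjusted p = 2.74e-06). Grb10, an adaptor that restrains insulin signalling (-0.72), and Pdcd4, an inhibitor of eIF4A (-0.49), were also lower. Rps6, the S6 kinase substrate and itself a TOP mRNA (sequence above), had 5483 and 5682 in IAA and 7448 and 7685 in Untreated libraries (-0.44). Called higher were the autophagy genes Ulk1 (0.34, with 3933 and 4009 in IAA and 3102 and 3167 in Untreated libraries), Atg13 (0.27) and Rb1cc1 (0.20), whose products form one kinase complex, and Poldip3 (0.16). Ulk2, the paralogue of Ulk1, was lower (-0.32). In the authors' deposited table the adjusted p was 0.000202 for Ulk1, 0.287 for Atg13, 0.373 for Rb1cc1, 0.287 for Poldip3 and 0.294 for Ulk2. There it was 0.00577 for Eef2k, 0.0272 for Grb10, 0.0706 for Pdcd4 and 1.83e-09 for Rps6. Poly(A) RNA of a cell population cannot tell fewer cells of a kind from less RNA per cell. Taking the 6 other pathway lists as a whole, 13 of 86 genes were higher and 33 lower, that is 15.1% and 38.4% beside 11.1% and 28.9% of all genes. Median-of-ratios factors gave 19 higher and 26 lower.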

How the data were processed

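Poly(A) libraries from total RNA were grouped and numbered by their titles. The submitters' processing notes list DESeq2, featureCounts, STAR, Bowtie2, SAMtools, deepTools and cutadapt (1.18) with the dm6 and mm10 builds, with no roles. The gene models and the strandedness of counting are not stated there. The labels' protocols also mention a depletion of 1 h for poly(A) RNA-seq, the kind of library used here. The 12 h of the sample labels was used. Drosophila S2 cells served as spike-in, per the labels' design text.

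Each of the authors' 4 deposited library columns is a score, made of counts divided by a size factor (0.98 and 0.95 for IAA, 0.88 and 0.87 for Untreated libraries) and rounded. A further column deposited by the authors is a signal, their mean before rounding, from which whole reads were recovered for 100% of genes (tolerance 0.001). It is not stated whether the factors come from spike-in reads. Also deposited were the authors' DESeq2 log2 fold change with its error, Wald score, p-value and adjusted p-value, per the file headers.

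The 14928 genes whose mean reached 10 were tested, leaving out 15354, by limma (version 3.58.1, R version 4.3.3) on log2(value + 1), with trended empirical Bayes and Benjamini-Hochberg adjustment. Fold changes on that scale understate changes of low genes. No count model was run here, although whole reads were recovered, and voom on those reads was an alternative. The authors' DESeq2 results called 12% of the 11495 genes with an adjusted p, against 39.9% of genes tested by limma. The method was tested on simulated data. Errors are SD of 2 libraries or SE of the fit, and counting errors cover counting only. Exons and coordinates are from GENCODE M21 on GRCm38 (mm10), which holds 30214 of the 30282 IDs. Named genes were Polr2c, the 10 members, and per pathway list the 4 called genes of largest change (with fewer than 2 called, also the 2 of highest level) and the extremes of the TOP lists. Other genes (Mlst8, Rheb, Rps6kb2, Eif4ebp3, Depdc5, Rraga, Flcn, Fnip1, Sesn2, Larp4, Pik3cb, Akt1, Ulk1, Ulk2, Atg13, Rb1cc1, Poldip3, Eef1a1, Eef2, Thy1 and Pdgfrb) were named after their values were seen. Members and lists were chosen with earlier results of these data known.

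Alternatives were pseudocounts of 0.5 and 5, a filter at 100 or none, scaling by library totals or median-of-ratios factors, values before rounding, voom, the authors' tests, the replicate number as a block, thresholds of 0.01 and 0.1, and leaving out each library. Leaving out each library with voom was added after seeing the data.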

Additional observations from a re-analysis of the deposited data

How the results depend on the processing

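With 2 libraries a group, changes of 10 to 25% are near what these data resolve. Over the 20 alternatives Eif4ebp1 and Deptor were called in 15 each, Rptor in 13, Mtor in 12, Rps6kb1 in 11, Eif4ebp2 in 8, Larp1 in 2 and Tsc1, Tsc2 and Akt1s1 in 0. Adjusted p ranged from 8.1e-17 to 0.132 for Eif4ebp1 and from 5.49e-07 to 0.111 for Deptor. The 5962 calls (1650 higher, 4312 lower) became 179 higher and 638 lower with no filter, 3036 higher with median-of-ratios factors, 3083 higher with library totals, 284 and 1100 in the authors' deposited table, and 1037 higher at a threshold of 0.01. Members called (1 higher, 5 lower) became 0 and 1 with no filter, 2 and 3 with median-of-ratios factors, 2 and 2 with library totals, 0 and 1 in the authors' table, and 0 higher at 0.01. Other pathway genes (13 higher, 33 lower) became 2 and 5 with no filter, 20 higher with library totals, 1 and 8 in the authors' table, and 8 higher at 0.01. The cause was not tested.

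Without 1 library, limma called 0 genes in each case (0 members and 0 pathway genes in either direction), with 4734 to 5070 genes and 4 or 5 members at an unadjusted p under 0.05. Voom without 1 library called 1197 to 1452 genes higher and 3298 to 3998 lower, 0 to 1 members higher and 4 to 5 lower, and 8 pathway genes higher without IAA replicate 1. With voom, Eif4ebp2 and Rps6kb1 lost their calls without Untreated replicate 2 (adjusted p = 0.0805 and 0.0532) or IAA replicate 2 (0.447 and 0.113), and the other 4 called members kept theirs. Signs changed for Eif4ebp2 (0.0013 with library totals), Tti1 (0.0028 with library totals), Eif3a (0.0057 with median-of-ratios factors and 0.0095 with library totals), Tsc2 (0.098 and 0.10), Akt1s1 (0.064 and 0.067), Akt1 (0.098 and 0.10) and Depdc5 (0.036 and 0.040), none of them called there. Without 1 library, in limma or voom, the log2 difference ranged from -0.096 to 0.12 for Tsc1 (-0.095 to 0.119 in limma; -0.046 without IAA replicate 1 and -0.047 with voom), from -0.022 to 0.017 for Tsc2 (0.0019 without IAA replicate 1 in voom) and from -0.172 to 0.097 for Akt1s1.

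Same-numbered replicates did not deviate together (correlation 0.0020 over 14928 genes). With the replicate number as a block 5 members were called, Eif4ebp2 being lost (adjusted p = 0.0773).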
